A study of Mus musculus with 6 samples.

Results

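Cyclins and the inhibitors of cyclin-dependent kinases (CDKs), leaving out the inhibitor p21, were followed in CFPAC-1 cells, a human pancreatic adenocarcinoma (PAAD) line, after knockdown of the keratin gene KRT7. The members were fixed by 10 Ensembl identifiers, in the order CCND1, CCND2, CCND3, CCNE1, CCNE2, CCNA2, CCNB1, CCNB2, CDKN1B and CDKN2A. Rows of 9 of the 10 were analysed out of 30543 genes in the count table, and CDKN2A (ENSG00000147889) was not analysed here. The si-KRT7 group (3 libraries) received a siRNA that targets KRT7, the si-Control group (3 libraries) received a non-targeting siRNA, and polyadenylated RNA was sequenced from both. Both groups were the same cell line and both were transfected, so the planned difference is the target of the siRNA. Effects of the siRNA on genes other than KRT7, or of separate preparation of the groups, cannot be told apart from it here. Which KRT7 duplex was used, and the time from transfection to harvest, are not given in the sources used here. The labels do not say whether the 3 libraries of a group came from separate cultures, so the p-values measure the spread between libraries, which may be technical.

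A cyclin is the regulatory subunit that switches on a CDK, and successive cyclins carry the cell through its cycle. The D-type cyclins bind CDK4 and CDK6 in G1 and connect growth signals to the phosphorylation of the retinoblastoma protein. The E-type cyclins act with CDK2 at the entry into S phase, cyclin A2 acts through S phase and G2, and the B-type cyclins drive mitosis with CDK1. CDKN1B encodes p27, which binds cyclin-CDK2 complexes and restrains them, while CDKN2A encodes p16, an inhibitor of CDK4 and CDK6 that is often lost in pancreatic cancer.

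Library totals lay between 28208896 and 36315802 counts, and levels are given as CPM, the counts per 1000000 counts of the library after scaling by edgeR's TMM method. Of the 30543 genes, 15736 passed edgeR's filter on low counts and were tested, and 8 of the members were among them. CCND2 did not pass the filter. Replicate 2 of si-KRT7 stood apart from the other libraries: its highest correlation with another si-KRT7 library was 0.983 across the log2 CPM of the genes tested, whereas replicates 1 and 3 of si-KRT7 had a correlation of 0.992 and no pair of si-Control libraries was below 0.991. Fold changes, ratios and counts of members are therefore given with and without this library. The library was singled out in these same data, so p-values without it can be too small. Without it 42.9% of all genes tested had an edgeR adjusted p under 0.05, against 2.07% with all 6 libraries. The gene name tables used here did not pair the human identifiers with symbols, so KRT7 itself and the markers of epithelial cells were not looked up.

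In si-KRT7 cells, CCND1 was the member called lower, at 0.649 times its si-Control level, and no other member passed the test with all 6 libraries. CCNB1 and CCNB2 were also lower in every si-KRT7 library but were not called. This was 1 of 8 members tested called lower at an adjusted p under 0.05 in edgeR's quasi-likelihood test, where 1.35% of all genes tested were called lower. No member was called higher, against 0.712% of all genes tested, and no member passed both this limit and an absolute log2 fold change of 1, against 0.292%. At an unadjusted p under 0.05 the test gave 5 of the 8 members, against 18.6% of all genes. With all 6 libraries the log2 fold change was negative in 6 and positive in 2 of the 8, with a median of -0.15 for the members and 0.011 for all genes tested. Without si-KRT7 replicate 2, CCNA2 (0.0041) and CDKN1B (0.0048) lay just above 0. The medians were then -0.11 for the members and -0.0094 for all genes tested. The sequenced RNA came from whole cultures, in which a lower level in every cell and a smaller share of cells in the phase that expresses a cyclin cannot be told apart.

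**Figure D1:**
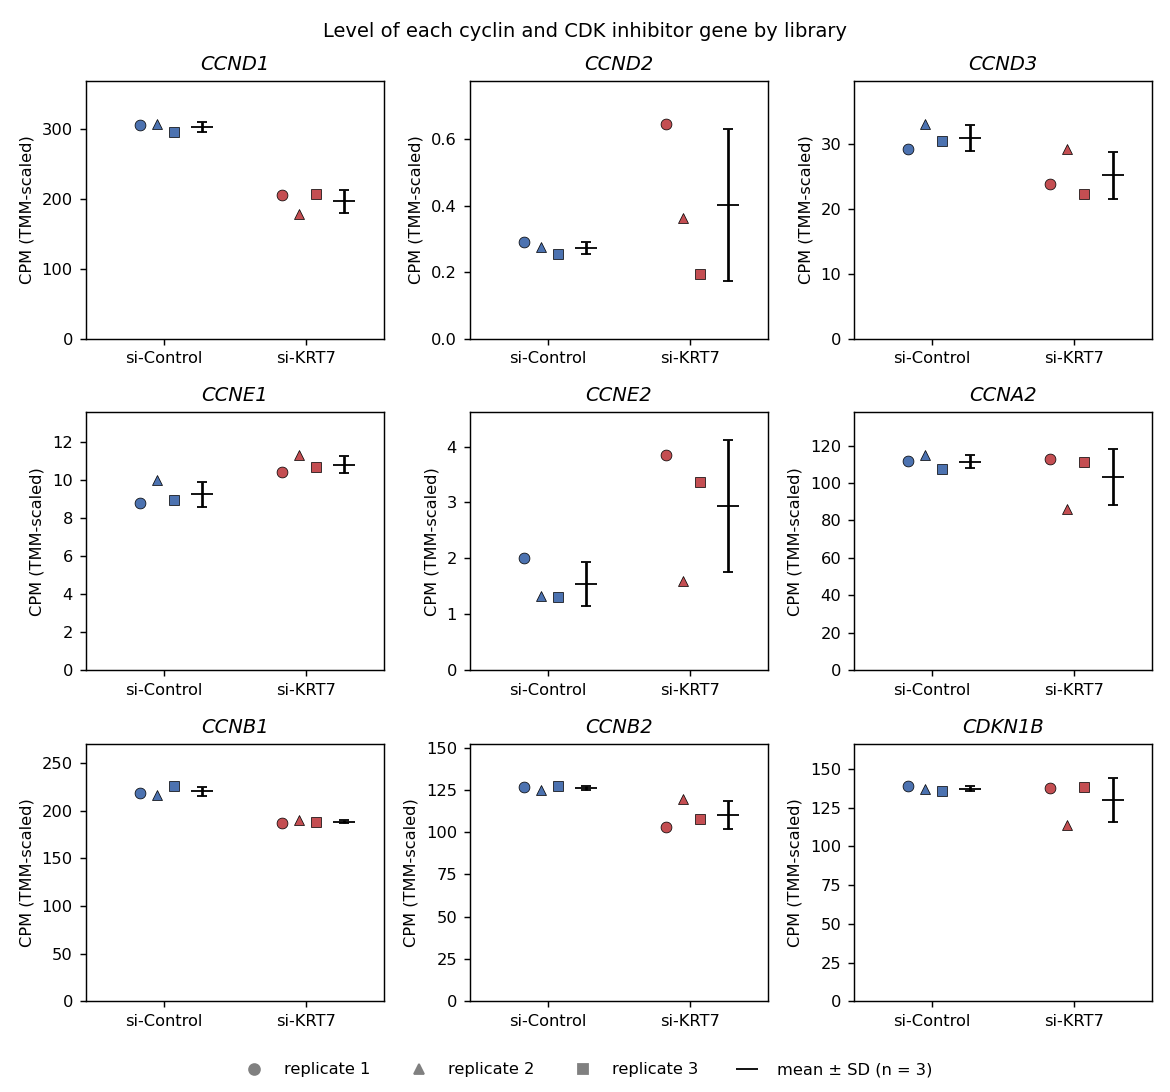
Level of each of the 9 members analysed, in TMM-scaled CPM (vertical axis, from 0), in the 3 si-Control and 3 si-KRT7 libraries. Points are libraries, with the shape giving the replicate number, and the bars are the mean ± SD. CCND1 lies at 178 to 207 CPM in si-KRT7 against 296 to 307 CPM in si-Control. By exact Poisson intervals, si-KRT7 replicate 2 lies apart from replicates 1 and 3 for CCND1, CCND3, CCNE2, CCNA2, CCNB2 and CDKN1B.

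CCND1 (ENSG00000110092), encoding cyclin D1, had 307, 307 and 296 CPM in si-Control replicates 1, 2 and 3 and 206, 178 and 207 CPM in those of si-KRT7. The groups did not overlap, and the si-KRT7 libraries held 67.9%, 58.7% and 68.1% of the average si-Control level. Replicate 2 of si-KRT7 was the lowest library. Its 95% exact Poisson interval, 173 to 183 CPM, lay below those of replicate 1 (201 to 211 CPM) and replicate 3 (202 to 212 CPM). The mean of si-Control was 303 ± 6.60 CPM and that of si-KRT7 was 197 ± 16.3 CPM (SD, n = 3 each). This gave a log2 fold change of -0.62 (standard error 0.081, 95% interval -0.81 to -0.44), with an adjusted p of 0.0109 in edgeR's quasi-likelihood test. By p, CCND1 ranked 67 of the 15736 genes tested, and 3.20% of them had a log2 fold change as low or lower. The DESeq2 Wald test called it as well, with an adjusted p of 1.80e-07, where 4.36% of the genes with an adjusted p were called lower. Without si-KRT7 replicate 2 the log2 fold change was -0.56 (standard error 0.034, edgeR adjusted p = 7.20e-12), in a fit that called 42.9% of all genes tested. The call was lost in edgeR without any one of the si-Control libraries (adjusted p 0.116, 0.113 and 0.0948 without replicates 1, 2 and 3) and without si-KRT7 replicate 3 (0.0587). These fits called few genes of any kind: 6, 6 and 10 of 16133 to 16241 tested without a si-Control library, and 36 without si-KRT7 replicate 3, against 325 with all libraries. The log2 fold change over the 6 fits with 1 library removed stayed between -0.66 and -0.56.

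CCND3 (ENSG00000112576), the gene of cyclin D3, had 29.2, 33.0 and 30.4 CPM in si-Control and 23.7, 29.2 and 22.3 CPM in si-KRT7 replicates 1, 2 and 3. Replicates 1 and 3 of si-KRT7 lay below all si-Control libraries, and replicate 2 lay level with the lowest of them. Its log2 fold change was -0.30 (95% interval -0.58 to -0.023, edgeR adjusted p = 0.235), which did not pass, and without si-KRT7 replicate 2 it was -0.42 (standard error 0.074, adjusted p = 5.67e-05). That fit called 42.9% of all genes tested, and it removes the si-KRT7 library nearest the si-Control mean.

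CCND2 (ENSG00000118971), the gene of cyclin D2, was covered by only 10, 10 and 8 counts in si-Control and 24, 10 and 6 counts in si-KRT7. The groups overlapped, and the highest and lowest of the 6 values were both si-KRT7 libraries, at 0.646 CPM (95% exact Poisson interval 0.414 to 0.960) and 0.195 CPM (0.0714 to 0.423). These intervals cover counting error only. The si-KRT7 mean was 0.401 CPM with all libraries and 0.420 CPM without replicate 2, against 0.273 CPM in si-Control. A fit without the filter on low counts gave a log2 fold change of 0.55 (standard error 0.59, edgeR adjusted p = 0.715). A change of CCND2 was not detectable at this depth. Strand use in the counting is not stated, so reads from an antisense transcript over a member, such as that at the CCND2 locus, could not be told apart from its own.

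The E-type cyclins were the 2 tested members with a positive log2 fold change when all 6 libraries were used. CCNE1 (ENSG00000105173), encoding cyclin E1, had 8.80, 9.99 and 8.92 CPM in si-Control and 10.4, 11.3 and 10.7 CPM in si-KRT7 replicates 1, 2 and 3. All si-KRT7 libraries were above all si-Control libraries. Its log2 fold change was 0.22 (95% interval -0.028 to 0.48, edgeR adjusted p = 0.324) and thus did not pass, and it was 0.19 without si-KRT7 replicate 2 (adjusted p = 0.195).

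CCNE2 (ENSG00000175305), encoding cyclin E2, had the largest log2 fold change in size of the 8 members tested and the most uneven si-KRT7 libraries. Its counts were 69, 48 and 41 in si-Control and 143, 44 and 104 in si-KRT7, or 2.0, 1.33 and 1.30 CPM and 3.85, 1.6 and 3.37 CPM. Relative to the si-Control mean, replicates 1 and 3 of si-KRT7 reached 249% and 219%, while replicate 2 reached 104%, below si-Control replicate 1. The exact Poisson interval of si-KRT7 replicate 2, 1.16 to 2.15 CPM, lay below those of replicate 1 (3.24 to 4.53 CPM) and replicate 3 (2.76 to 4.09 CPM). The log2 fold change was 0.94 (standard error 0.34, 95% interval 0.16 to 1.72), and 1.80% of all genes tested had one as high or higher, but the adjusted p was 0.197 in edgeR and 0.0776 by DESeq2. It passed without si-KRT7 replicate 2 (log2 fold change 1.22, standard error 0.23, edgeR adjusted p = 1.54e-04), which removes the si-KRT7 library nearest the si-Control mean. That fit called 42.9% of all genes tested. CCNE2 also passed in the edgeR fit without a filter on low counts (0.93, adjusted p = 0.0106), which called 4.41% of all genes tested. In limma-voom with sample quality weights it passed too (1.19, adjusted p = 3.08e-04), and that fit called 43.6%. Its weights let libraries count unequally and were not looked at. It therefore cannot be taken as separate from the fit without si-KRT7 replicate 2.

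CCNA2 (ENSG00000145386), the gene of cyclin A2, differed little between the groups apart from a single library. It had 112, 115 and 108 CPM in si-Control and 113, 85.8 and 111 CPM in si-KRT7. Replicates 1 and 3 of si-KRT7 lay within the si-Control range, and replicate 2 lay below it, at 77.0% of the si-Control mean. A log2 fold change of -0.11 was obtained (95% interval -0.37 to 0.15, edgeR adjusted p = 0.654), and one of 0.0041 without si-KRT7 replicate 2, with a 95% interval of -0.081 to 0.089.

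The B-type cyclins lay lower in every si-KRT7 library than in any si-Control library, by small amounts. With all 6 libraries these did not pass in edgeR or DESeq2. They passed in limma-voom with sample quality weights (adjusted p 2.44e-04 for CCNB1 and 3.05e-04 for CCNB2), where 43.6% of all genes tested were called. CCNB1 (ENSG00000134057), encoding cyclin B1, had 219, 216 and 226 CPM in si-Control and 187, 190 and 189 CPM in si-KRT7 replicates 1, 2 and 3. Its si-KRT7 libraries were close to each other, at 84.8%, 86.3% and 85.6% of the si-Control mean, and replicate 2 did not stand apart for this gene. The log2 fold change was -0.22 (standard error 0.066, 95% interval -0.38 to -0.074, edgeR adjusted p = 0.124), and the adjusted p of the DESeq2 Wald test was 0.0625. CCNB2 (ENSG00000157456), encoding cyclin B2, had 127, 125 and 127 CPM in si-Control and 103, 119 and 108 CPM in si-KRT7, a log2 fold change of -0.20 (95% interval -0.38 to -0.013, edgeR adjusted p = 0.241). Without si-KRT7 replicate 2 both passed, with log2 fold changes of -0.23 for CCNB1 (edgeR adjusted p = 6.64e-06) and -0.26 for CCNB2 (8.77e-06). That fit called 42.9% of all genes tested, and for CCNB2 it removes the si-KRT7 library nearest the si-Control mean.

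CDKN1B (ENSG00000111276), the gene of p27 and the CDK inhibitor analysed, had 139, 137 and 136 CPM in si-Control and 138, 114 and 138 CPM in si-KRT7 replicates 1, 2 and 3. As for CCNA2, replicates 1 and 3 of si-KRT7 lay at the si-Control level, and replicate 2 lay lower, at 82.9% of the si-Control mean. With all libraries its log2 fold change was -0.079 (95% interval -0.29 to 0.13, edgeR adjusted p = 0.700), and without si-KRT7 replicate 2 it was 0.0048, with a 95% interval of -0.072 to 0.081.

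Groups did not overlap in 3 members with lower si-KRT7 values (CCND1, CCNB1 and CCNB2), where 13.0% of all genes tested were separated in this direction, and in 1 member with higher values (CCNE1), where 11.3% were. In these 4 members a two-sided exact permutation test over all 6 libraries returned p = 0.1, the smallest p possible with 3 against 3. Groups that do not overlap always give this value, so the test adds nothing to the lack of overlap. In the other members tested, an exact permutation test returned p = 0.2 for CCND3 and for CCNE2, 0.6 for CCNA2 and 0.8 for CDKN1B.

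**Figure D2:**
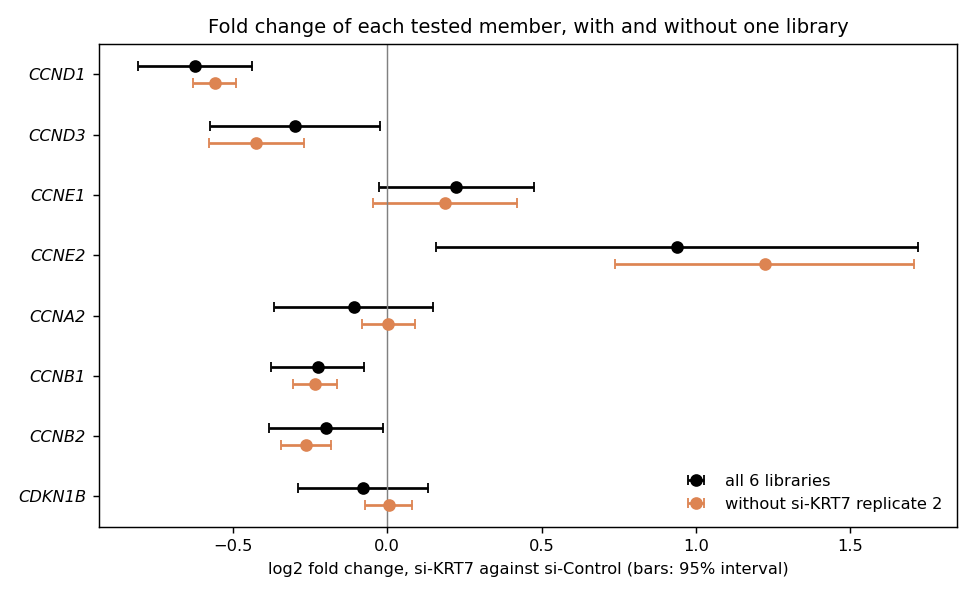
Log2 fold change of si-KRT7 against si-Control (horizontal axis) for the 8 members tested, from edgeR's quasi-likelihood fit with all 6 libraries (black) and without si-KRT7 replicate 2 (orange). Bars are 95% intervals, and CCND1 is the member furthest below 0 in both fits (-0.62 and -0.56), while CCNA2 and CDKN1B lie at 0.0041 and 0.0048 without that library.

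Without si-KRT7 replicate 2, 5 of the 8 members were called: CCND1, CCND3, CCNB1 and CCNB2 lower and CCNE2 higher. In the same fit 22.0% of all 16202 genes tested were called lower and 20.9% higher, and the biological coefficient of variation, the spread between replicates beyond counting, was 0.0485 in place of 0.130. The count of members called must be read against these shares. The groups did not overlap in 4 members with lower values (the same 4 genes) and in 2 with higher values (CCNE1 and CCNE2), where 31.3% of the 15736 genes were separated downwards and 30.2% upwards. The fit compares 2 si-KRT7 libraries with 3 si-Control libraries.

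**Figure D3:**
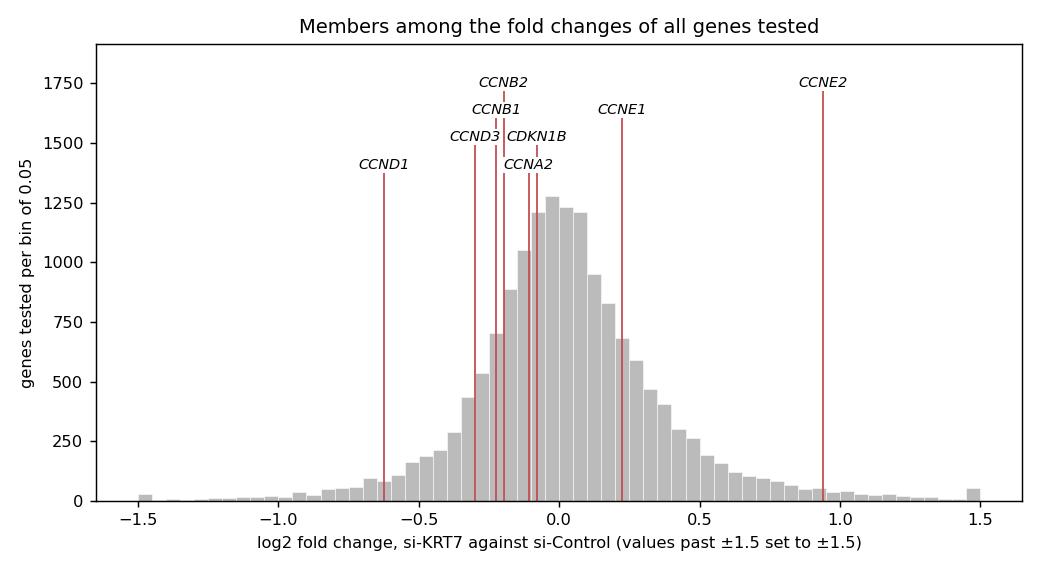
Number of genes tested (vertical axis) by log2 fold change of si-KRT7 against si-Control in bins of 0.05 (horizontal axis, all 6 libraries), with a red line at each of the 8 members tested. CCND1 at -0.62 and CCNE2 at 0.94 lie in the tails, with 3.20% and 1.80% of all genes as far or further out on the same side, and the other 6 lie between -0.30 and 0.22.

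The ratio of 2 members within a library does not depend on how libraries are scaled, so 6 ratios were followed as log2 ratios of counts. They are compared between libraries only, since the lengths of the genes were not used. The ratio of CCND1 to CDKN1B, of a cyclin that drives G1 to an inhibitor, was 1.14, 1.16 and 1.12 in si-Control and 0.58, 0.64 and 0.58 in si-KRT7 replicates 1, 2 and 3. It was lower in every si-KRT7 library, by 0.54 on average and by 0.56 without replicate 2 (SD 0.020 in si-Control and 0.038 in si-KRT7, n = 3), and replicate 2 of si-KRT7 lay close to the other libraries of its group. The ratio of CCNE1 to CDKN1B was -3.98, -3.78 and -3.93 in si-Control and -3.72, -3.33 and -3.69 in si-KRT7. The groups did not overlap, but the mean difference of 0.31 was 0.19 without si-KRT7 replicate 2.

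The ratio of CCND1 to CCND3 was 3.39, 3.22 and 3.28 in si-Control and 3.11, 2.60 and 3.21 in si-KRT7. It was lower in si-KRT7, with replicate 3 just under the lowest si-Control library, and the mean difference of -0.32 was -0.13 without replicate 2. The ratio of CCNE1 to CCNE2 overlapped between the groups, with 2.13, 2.90 and 2.76 in si-Control and 1.44, 2.81 and 1.66 in si-KRT7. Here replicates 1 and 3 of si-KRT7 were the lowest libraries and replicate 2 lay among those of si-Control, so that the mean difference of -0.63 was -1.05 without it. The ratio of CCNB1 to CCNB2 varied least among these 4 cyclin pairs, between 0.79 and 0.83 in si-Control and between 0.67 and 0.86 in si-KRT7, and its groups overlapped (mean difference -0.025, and 0.029 without si-KRT7 replicate 2). The ratio of CCNA2 to CCNB1 also overlapped, with -0.97, -0.91 and -1.07 in si-Control and -0.73, -1.15 and -0.76 in si-KRT7. Its mean difference of 0.10 was 0.24 without si-KRT7 replicate 2. No test was made on the ratios.

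**Figure D4:**
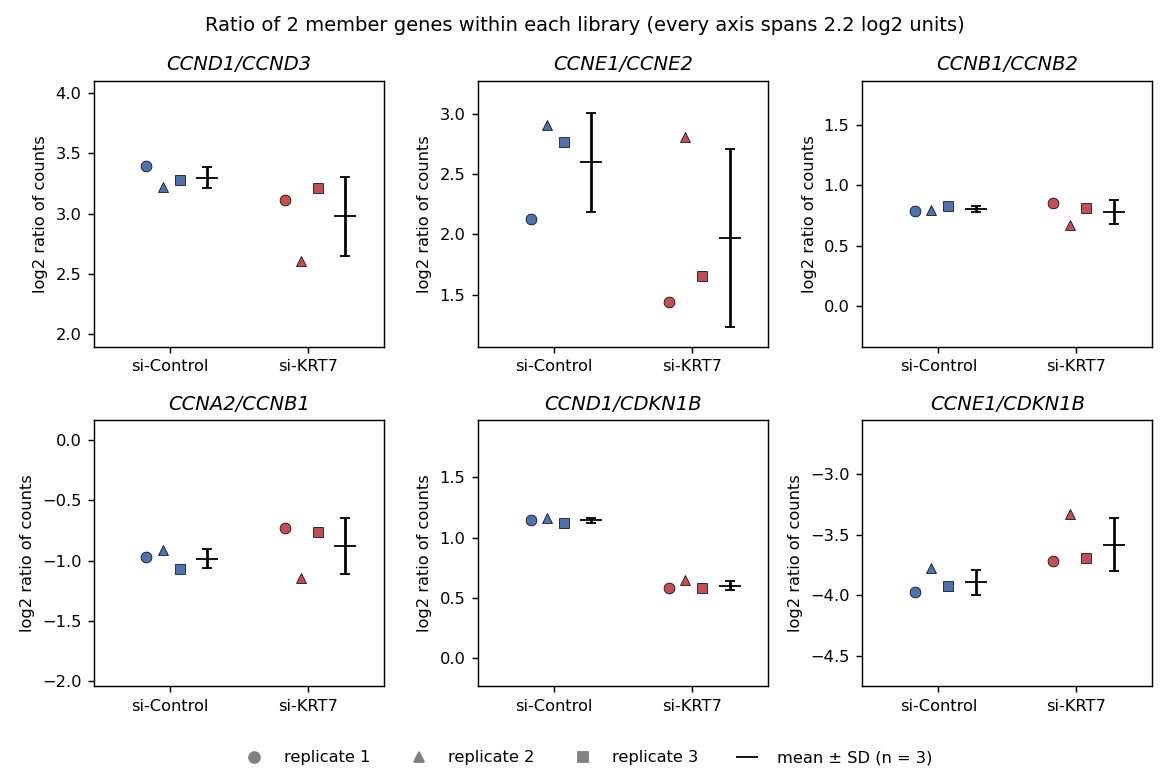
Log2 ratio of the counts of 2 members within a library (vertical axes of equal span) for 6 pairs, in the 3 si-Control and 3 si-KRT7 libraries. Points are libraries with the shape giving the replicate number, and bars are the mean ± SD. The ratio of CCND1 to CDKN1B lies at 0.58 to 0.64 in si-KRT7 and 1.12 to 1.16 in si-Control, with the smallest spread in si-KRT7 of the 6 pairs.

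The patterns of the members over the 6 libraries were compared by the root mean square difference of their log2 CPM, each centred on its own mean. For the 8 members that reached 10 counts in each of the libraries, the closest pair was CCNA2 and CDKN1B, with a difference of 0.046. Both were low in si-KRT7 replicate 2 and level elsewhere. CCNB1 and CCNB2 followed with 0.058, and CCND3 and CCNB2 with 0.11. CCND1 was closest to CCNB1, at 0.22. CCNE2 lay furthest from the rest, and its closest member, CCNE1, differed from it by 0.57. CCNE2 also had the fewest counts of these 8 members, 41 to 143 per library, so counting error adds more to its distances. Without si-KRT7 replicate 2 these 2 pairs were again the closest, with 0.026 for CCNA2 and CDKN1B and 0.025 for CCNB1 and CCNB2, and CCND1 and CCND3 came next with 0.091. These distances are descriptions over the same libraries.

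Other genes of the cell cycle were counted from the human marker pairs supplied by identifier with the scran package, taken as 1 list without phases. The list holds 1314 genes, among them 8 of the 9 members analysed, with CDKN1B left out. Of 1181 list genes tested, 11 were called lower and 7 higher, or 1.52% in all, beside 2.07% of all genes tested. Their median log2 fold change was 0.0013, beside 0.011 for all genes. Without si-KRT7 replicate 2, 329 were called lower and 387 higher, 60.5% of 1183 list genes tested beside 42.9% of all genes, and the median was 0.013. The list was thus called in both directions in either fit.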

How the data were processed

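Polyadenylated RNA of 6 CFPAC-1 libraries (si-Control and si-KRT7, 3 each) was sequenced on the DNBSEQ platform. The table deposited by the authors holds raw read counts for each gene, as whole numbers. The submitters' processing notes name STAR 2.7.11b and the mouse build GRCm39, and the labels give the mouse as organism, whereas all 30543 identifiers of the table are human Ensembl identifiers. The counting tool and the annotation are not given in the sources used here. Columns were matched to samples by group prefix and replicate number, and 0 columns were left unused.

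Differential expression was tested in edgeR 4.0.16 under R 4.3.3 (filterByExpr, TMM, glmQLFit and glmQLFTest, Benjamini-Hochberg adjustment over all genes tested). Standard errors were taken as the size of the log2 fold change over the square root of F and are approximate. Log2 CPM had 2 counts and ratios 0.5 counts added. Alternatives used DESeq2 1.42.0 and limma 3.58.1, and the fits were run on simulated counts with 200 changed genes. The simulation gave every gene the same spread and held no library that stood apart, so it does not cover that feature of these data. The marker pairs came from scran 1.30.0.

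All 10 members were to be named, called or not. Members, lists and tests were chosen with earlier results of these data known. The name tables used here matched 0 identifiers, so a list of further cell-cycle genes and cell type markers by symbol, gene lengths, positions and sequences were not used.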

Additional observations from a re-analysis of the deposited data

How the results depend on the processing

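The count of members called, 1 with all 6 libraries, was the same with DESeq2 size factors, library size only, the DESeq2 Wald test, limma-voom, at least 10 counts in every library and the replicate block. It was 5 with limma-voom and sample quality weights, with CCND1, CCND3, CCNB1 and CCNB2 lower and CCNE2 higher. That fit kept all 6 libraries but let them count unequally, and it called 43.6% of all genes tested. The weights were not looked at, so it cannot be taken as separate from the fit without si-KRT7 replicate 2, which called the same 5 members. The count was 2 without a filter on low counts, where 4.41% were called, against 2.07% with all libraries and the filter. It lay between 0 and 5 with 1 library removed: the 4 fits with 0 members called between 6 and 36 genes in all, and the fit with 5 members called 6944. The cause was not tested. CCND1 was called in all 8 alternatives that kept every library, with a log2 fold change between -0.64 and -0.57, and in 2 of the 6 that left one out. With the replicate block its adjusted p was 0.0496. The labels do not say whether same-numbered libraries were prepared together. Their deviations from the group means had correlations of 0.052, -0.081 and -0.073, and 1 of 3 si-Control libraries correlated best with its own number. With 3 libraries per group these values cannot settle whether the libraries were paired.

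The direction turned without si-KRT7 replicate 2 for CCNA2 (0.0041, range -0.18 to 0.0041 over the fits with 1 library removed) and CDKN1B (0.0048, range -0.13 to 0.0048). Of 112 member values under alternatives, 97 kept direction and side of the limit, 9 newly passed it, 4 no longer did and 2 turned. With 1 library removed, the difference in the log2 ratio ran from -0.44 to -0.13 for CCND1/CCND3, from -1.05 to -0.37 for CCNE1/CCNE2, from -0.063 to 0.029 for CCNB1/CCNB2, from 0.030 to 0.24 for CCNA2/CCNB1, from -0.56 to -0.53 for CCND1/CDKN1B and from 0.19 to 0.38 for CCNE1/CDKN1B. The ends came from fits without a si-KRT7 library. The counts of members without overlap and the pattern distances without si-KRT7 replicate 2 were added after seeing the data. Of the cell-cycle list, 18 genes were called with all libraries and 716 without si-KRT7 replicate 2. No scaling moved the median log2 fold change of all genes past 0.033.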
